A study of Mus musculus with 10 samples.

Results

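Proliferating microglia (PM) are the microglia that the authors' annotation of the microglia assigns to the cell state PM. They numbered 790 of 40547 microglia, or 1.95%, within 45472 CD45+ cells sorted from whole mouse brain. Every cell came from 1 of 10 single-cell RNA sequencing libraries. WT and Nlrp3KO mice were profiled at 3, 6 and 9 months of age (3m, 6m and 9m), and APP/PS1 and Nlrp3KO APP/PS1 mice at 3 and 9 months. Nlrp3KO mice lack Nlrp3, the sensor of an inflammasome, in the whole body. APP/PS1 mice overexpress a mutant amyloid precursor protein and a mutant presenilin 1 in neurons and deposit ß-amyloid, and they are set here against non-diseased mice, that is WT and Nlrp3KO. All mice were littermates, and actinomycin D, which stops transcription, was present while the brains were dissociated. Each genotype and age has 1 library, made from a pool of mice of both sexes, and the annotation puts all libraries of an age in 1 batch, so that age and batch cannot be told apart. PM were compared with homeostatic microglia (HM, 31953 cells) of the same libraries and, where it helps, with disease-associated microglia (DAM, 901 cells).

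Microglia are the resident macrophages of the brain and maintain their number by dividing in place. A cell that divides first licenses its replication origins with the MCM helicase, copies its DNA in S phase under the control of E2F factors, and then builds a spindle in G2 and M phase from genes driven by B-MYB and FOXM1 together with the MuvB complex. In resting cells MuvB is part of the DREAM complex, which represses these genes. Homeostatic microglia are recognised by genes such as P2ry12, a receptor for nucleotides, and Tmem119. DAM, which collect at amyloid plaques, lower these genes and raise Apoe, Cst7, Lpl and other genes of lipid and lysosomal metabolism.

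The libraries gave 56 to 166 PM each (median 68) and 344743 to 976218 unique molecular identifiers (UMIs, tags that count single RNA molecules) summed over PM. The median PM held more UMIs than the median HM in 10 of 10 libraries, by a ratio of 1.17 to 1.49. Over all libraries the median was 5796 UMIs and 2479 genes in PM, against 4366 UMIs and 1975 genes in HM. The doublet score that the authors deposited exceeded 0.5 in 168 PM (21.3%, 15.5% to 31.0% by library) and in 6.35% of HM, and it was more often high in PM in 10 of 10 libraries. Of 45225 cell barcodes, 246 occurred in more than 1 library, and 10 of these belonged to a PM, none of them to PM in both libraries. In the authors' separate annotation of all CD45+ cells, 662 of the 790 PM were PM as well (83.8%), 99 were HM and 18 were interferon-responsive microglia.

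The label was first set against its markers. Mki67, which encodes the proliferation antigen Ki-67, counted 2687 UMIs in PM and 23 in all HM. Top2a, the topoisomerase that untangles replicated chromosomes, counted 3065 UMIs against 40. At least 1 UMI of either gene was seen in 278 PM, or 35.2% (exact 95% interval 31.9% to 38.6%), against 0.172% of HM, 0.111% of DAM and 13.8% of T cells, at median depths of 5796, 4366, 5726 and 5810 UMIs. Intervals cover counting error between cells only. Most PM thus held no UMI of either marker, whereas other cycle genes were seen in more of them. Stmn1, a protein that destabilises microtubules, had a UMI in 68.0% of PM and 10.8% of HM, Mcm3 in 58.5% against 14.3%, and Mcm5 in 40% against 1.43%.

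Cell cycle phases were read from 43 S genes and 54 G2/M genes after every cell had been thinned to 2500 UMIs, which 787 PM and 31274 HM reached. The median PM held 5 S UMIs and 4 G2/M UMIs, against 1 and 2 in HM. A cell was called G2/M-high above 6 G2/M UMIs and S-only above 5 S UMIs alone, these limits being the 99th percentiles of HM. G2/M-high cells made up 271 PM (34.4%, 31.1% to 37.9%), S-only cells 148 (18.8%) and cells above neither limit 368 (46.8%). Among HM, 0.502% were G2/M-high. A UMI of Mki67 or Top2a was present in 88.9% of G2/M-high PM, 12.2% of S-only PM and 5.16% of the rest, which follows in part from the cut, since both are G2/M genes. These classes are ranges of a score and not cell types, and 120 PM lay within 2 UMIs of the G2/M limit. Of the 128 PM that the other annotation did not call PM, 114 were above neither limit.

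**Figure D1:**
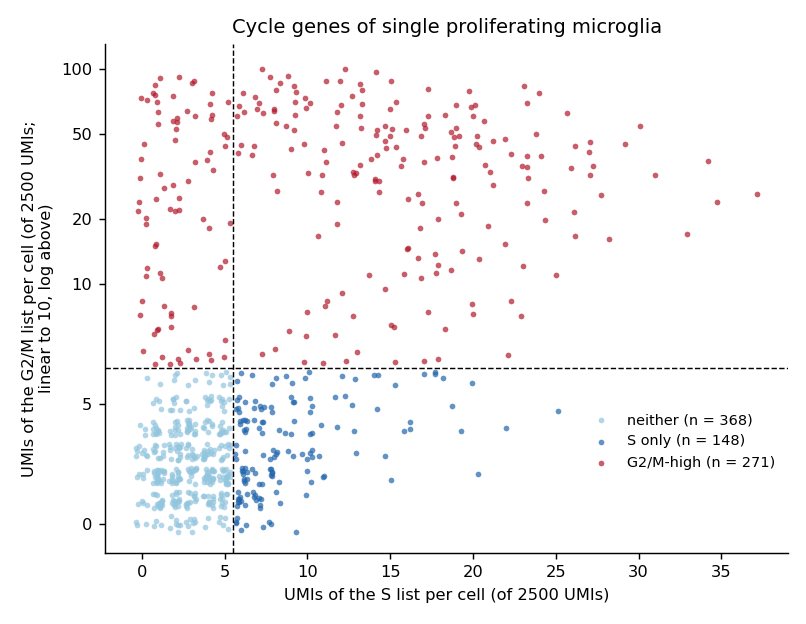
Each point is 1 of the 787 PM thinned to 2500 UMIs, with its UMIs of the 43 S genes on the x axis and of the 54 G2/M genes on the y axis. The dashed lines mark the limits of 5 and 6 UMIs, and 368 PM (46.8%) lie at or below both.

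G2/M-high PM held a median of 7027 UMIs, against 5686 in S-only PM and 5310.5 in the rest. A doublet score over 0.5 was found in 29.5%, 14.9% and 17.9% of them. The median percent of mitochondrial UMIs was 3.57, 2.73 and 2.91 in the same order, and 2.81 in HM. S-only PM and PM above neither limit are grouped below as other PM (516 cells, 17.1% with such a score).

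The share of PM differed between libraries and was highest in Nlrp3KO APP/PS1 9m. It was 1.15% of microglia in WT 3m, 1.63% in Nlrp3KO 3m, 2.27% in APP/PS1 3m and 2.02% in Nlrp3KO APP/PS1 3m. At 6 months it was 1.63% in WT and 2.16% in Nlrp3KO. At 9 months it was 2.46% in WT, 2.08% in Nlrp3KO, 2.68% in APP/PS1 and 3.76% in Nlrp3KO APP/PS1. The APP/PS1 library was higher than its non-diseased counterpart in 4 of 4 pairs, by 0.850 ± 0.677 percentage points (SD, n = 4; exact two-sided sign-flip test, p = 0.125, the smallest that 4 pairs allow). The 9-month library was higher than the 3-month library of its genotype in 4 of 4 pairs, by 0.976 ± 0.657 percentage points (exact sign-flip test, n = 4, p = 0.125). Nlrp3KO libraries were higher in 3 of 5 pairs, by 0.292 ± 0.605 percentage points (exact sign-flip test, n = 5, p = 0.375, where 0.0625 is the smallest possible). None of these designs could pass a threshold of 0.05. As a share of all CD45+ cells the APP/PS1 difference was 0.492 and the age difference 0.622, each positive in 3 of 4 pairs. With PM from the annotation of all CD45+ cells the age difference was 0.533, positive in 3 of 4 pairs, and the difference between Nlrp3 genotypes was -0.0136. Counting as proliferating every cell with UMIs of at least 3 S or G2/M genes turned the other differences to -0.627 (APP/PS1) and -3.80 (age), but that count took 25.6% of HM as well as 82.2% of PM.

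The G2/M-high class varied more between libraries than the rest of PM. As a share of all microglia of sufficient depth, G2/M-high PM ranged from 0.347% in WT 6m to 2.34% in Nlrp3KO APP/PS1 9m (median 0.527%). Other PM ranged from 0.771% to 1.82% (median 1.29%). Within PM, the G2/M-high share was 34.9%, 23.7%, 20% and 36.6% at 3 months in WT, Nlrp3KO, APP/PS1 and Nlrp3KO APP/PS1. It was 21.4% and 19.0% at 6 months in WT and Nlrp3KO. At 9 months, in the order of the 3-month libraries, it was 50%, 28.6%, 55.2% and 62.1%. The 9-month library was higher in 4 of 4 pairs, by 20.2 ± 13.1 percentage points (exact sign-flip test, n = 4, p = 0.125, the smallest possible), a measure chosen after seeing the data. The median percent of mitochondrial UMIs in PM was higher at 9 months too, at 3.74 to 4.72 against 2.26 to 3.36 at 3 months. Its part in the G2/M-high share was not tested. The G2/M-high share differed by 9.16 ± 20.04 percentage points between APP/PS1 and non-diseased libraries (higher in 3 of 4 pairs, exact p = 0.5) and by -2.31 ± 14.9 between Nlrp3KO and Nlrp3WT libraries (higher in 2 of 5, exact p = 0.75). The share of PM with more S than G2/M UMIs ranged from 24.2% to 64.3%. It was lower in APP/PS1 in 3 of 4 pairs, by -10.6 ± 15.2 percentage points (exact p = 0.375), and -4.75 ± 11.3 in Nlrp3KO (exact p = 0.3125, 5 pairs). Without thinning these last values were -13.5 and -4.50.

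**Figure D2:**
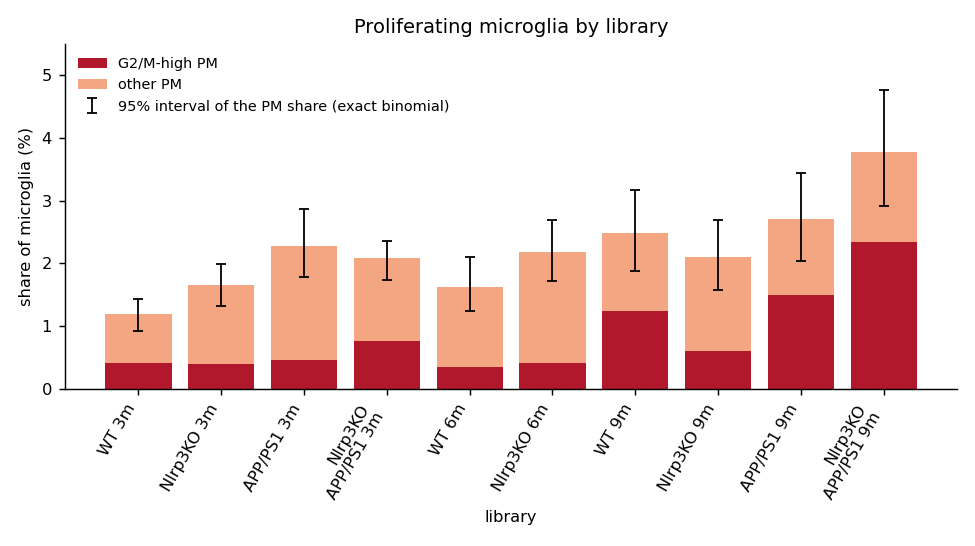
Stacked bars show G2/M-high PM and other PM as a percent of the microglia with at least 2500 UMIs in each of the 10 libraries, and error bars are exact 95% binomial intervals of the PM share of all microglia. That share runs from 1.15% in WT 3m to 3.76% in Nlrp3KO APP/PS1 9m, and the G2/M-high part is largest at 9 months in WT, APP/PS1 and Nlrp3KO APP/PS1.

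PM and HM were next compared gene by gene as CPM (UMIs per 1000000 UMIs) summed over the cells of each state. The authors defined PM by clustering these same cells on their genes, so the values below describe the state and are not tested. Of 11068 genes with at least 200 UMIs in PM and HM together, 554 were over 2-fold higher in PM and higher in 10 of 10 libraries, and 29 were lower by the same measure. These are 5.01% and 0.262% of the genes, the background against which the lists below can be read. The median log2 ratio of all 11068 genes was 0.04. A gene seen almost only in PM could reach 200 UMIs through PM alone, so the counts of members are descriptions as well.

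Most genes of DNA replication were higher in PM. Of 37 genes of origin licensing and the replication fork, 33 had enough UMIs and 31 of these were higher, with a median log2 ratio of 2.84. Mcm3 and Mcm6, subunits of the helicase, reached 170 and 116 CPM in PM against 35.5 and 7.19 CPM in HM. Mcm5, another subunit, had 90.7 against 3.27 CPM, a log2 ratio of 4.8. It ranged from 76.2 over a median of 84.9 to 127 CPM by library in PM, the highest in APP/PS1 3m, and was at most 4.52 CPM in HM. All 7 genes of nucleotide supply were higher (median log2 ratio 3.55), among them Rrm2, the regulated subunit of ribonucleotide reductase, at 85.2 against 0.12 CPM. Of 13 genes of DNA repair with enough UMIs 11 were higher, among them Brca1 at 43.7 against 0.35 CPM. Chromatin assembly followed in 13 of 14 genes, with H2afz, a histone variant, at 1541 against 358 CPM and Hmgb2, a chromatin protein, at 722 against 60.6 CPM. Genes of the histone clusters were taken by symbol, from Hist1h to Hist4h. Among 30 of them with enough UMIs 8 were higher (26.7%), and 25 had a ratio above 1. Hist1h1b, a linker histone, was among the 8, at 117 against 0.15 CPM. The summed level of all 67 such genes was 1099 CPM in PM against 444 CPM in HM, higher in 10 of 10 libraries. Transcripts of these histone genes mostly lack a poly(A) tail, and the assay primes from that tail. The part of this in their levels was not tested.

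Genes of the spindle were further apart. All 39 spindle and kinetochore genes with enough UMIs were higher, with a median log2 ratio of 6.78 over the 38 seen in HM, as were all 10 genes of condensin and topoisomerase (4.43). Bub1, a kinase of the spindle checkpoint, had 223 UMIs in PM and none in HM, and so no ratio. Mki67 had 522 CPM in PM, with a lowest value of 139 in WT 6m, a median of 443 and a highest of 853 in Nlrp3KO APP/PS1 9m, and at most 0.51 CPM in HM. Top2a had 595 CPM in PM, from 203 in WT 6m over a median of 550 to 1083 in Nlrp3KO APP/PS1 9m, and at most 0.64 CPM in HM. Both were thus lowest in the same library and highest in the same library, and no PM value came near an HM value. Of 21 genes of the anaphase promoting complex, the ligase that ends mitosis, only 5 were higher (median 0.54), led by Ube2c, its ubiquitin-conjugating enzyme (188 against 0.23 CPM), and Cdc20, its activator (89.9 against 0.74 CPM). Of 13 E2F and MYB factors with enough UMIs 8 were higher, with E2f1 at 30.7 against 1.12 CPM, E2f8 at 38.1 against 0.06 CPM and Foxm1 at 34.4 against 0.74 CPM. Myc, at 15.9 against 14.1 CPM, was not among them.

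The promoters of the S and G2/M genes were searched for short motifs, and 4 promoters are shown as examples. They were picked by UMIs in PM among licensing genes with an E2F motif and G2/M genes with a CHR motif. Only genes with a single annotated window and the motif within 150 bases of the start were considered. Searched were the E2F motifs TTTCCCGC and TTTGGCGC, the cell cycle homology region (CHR) motif TTTGAA, to which the DREAM complex binds, and the CCAAT box, bound by NF-Y. RefSeq annotation of GRCm38.p6 gives windows from 250 bases before to 50 after each start. Only the 250 bases before the start were searched, on both strands. An E2F motif was in 8 of 34 windows of the S genes (23.5%), in 2 of 52 of the G2/M genes (3.85%), in none of 34 of the identity genes described below, and in 1.30% of all 32851 windows. A CHR motif was in 17.6%, 40.4% and 17.6% of them, and in 16.0% of all windows. A CCAAT box was in 67.6%, 75% and 41.2%, and in 33.8% of all windows. These windows stood for 31 of 43 S genes, 47 of 54 G2/M genes and 25 of 35 identity genes. The 150 bases next before the start are printed 5′ to 3′ in the direction of transcription, with capitals marking every match, for Mcm6 (chr1:128359706-128359855, minus strand), Mcm5 (chr8:75109359-75109508, plus strand), Hmgb2 (chr8:57511693-57511842, plus strand) and Top2a (chr11:99024190-99024339, minus strand).
Mcm6: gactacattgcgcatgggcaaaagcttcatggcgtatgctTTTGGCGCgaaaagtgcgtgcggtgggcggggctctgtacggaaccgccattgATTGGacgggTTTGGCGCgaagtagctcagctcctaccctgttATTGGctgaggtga
Mcm5: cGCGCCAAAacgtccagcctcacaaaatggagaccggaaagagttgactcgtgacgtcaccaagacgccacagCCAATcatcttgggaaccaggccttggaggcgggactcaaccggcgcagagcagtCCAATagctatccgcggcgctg
Hmgb2: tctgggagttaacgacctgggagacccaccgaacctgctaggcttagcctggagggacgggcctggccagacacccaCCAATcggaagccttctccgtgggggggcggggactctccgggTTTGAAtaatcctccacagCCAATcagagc
Top2a: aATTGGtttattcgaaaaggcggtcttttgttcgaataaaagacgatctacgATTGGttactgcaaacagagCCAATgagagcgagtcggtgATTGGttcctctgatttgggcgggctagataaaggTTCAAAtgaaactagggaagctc
The Mcm6 window holds 2 E2F motifs and 2 CCAAT boxes, and that of Mcm5 1 and 2. The Hmgb2 window holds 1 CHR motif and 2 CCAAT boxes, and that of Top2a 1 and 4. Mcm5 is among the S genes and Top2a among the G2/M genes that define the classes, so their levels by class describe the cut. Mcm5 had 91.3 CPM in G2/M-high PM, 149 in S-only PM and 66.5 in PM above neither limit, whereas Top2a had 1420, 27.5 and 4.21 CPM.

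Cyclins of S phase and mitosis were higher in PM. Ccne2, the cyclin of the start of S phase, had 54.6 against 0.50 CPM, Ccna2, that of S and G2 phase, 81.0 against 0.16 CPM, and Ccnb2, that of mitosis, 98.6 against 0.21 CPM. Cdk1, the mitotic kinase, had 157 against 2.80 CPM. Ccnd1, the cyclin that couples growth signals to the cycle, was alike in both states at 145 against 123 CPM and higher in 7 of 10 libraries. In all, 7 of 11 cyclins and kinases with enough UMIs were higher (median log2 ratio 5.81). None of 15 growth factor receptors and ligands with enough UMIs was higher or lower by the measure used, with a median log2 ratio of -0.20. Csf1r, the receptor on which microglia depend for survival, had 2946 CPM in PM and 3453 CPM in HM.

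Several inhibitors of the cycle were higher in PM together with its drivers. Of 12 such genes, 5 were over 2-fold higher in 10 of 10 libraries and 1 was lower. Cdkn1a, which encodes the kinase inhibitor p21, had 296 CPM in PM, from 109 in APP/PS1 3m over a median of 219 to 667 in APP/PS1 9m, and 9.21 to 23.1 CPM in HM. It was highest in the 4 libraries of 9 months. A Cdkn1a UMI was present in 33.5% of PM, 3.98% of HM and 14.5% of DAM. It was highest in G2/M-high PM, at 654 CPM against 43.5 CPM in other PM, higher in 10 of 10 libraries. Other PM were in turn above HM, at 13.7 CPM, in 10 of 10 libraries. Cdkn2a, Cdkn2c and Cdkn2d, inhibitors of the INK4 family, had log2 ratios of 5.79, 3.93 and 2.70 between PM and HM. They too were higher in G2/M-high PM than in other PM, by 3.44, 4.27 and 4.8 on the log2 scale. Unlike Cdkn1a, they were not all above HM in other PM. Cdkn2a was above HM there in 9 of 10 libraries and Cdkn2c in 6, whereas Cdkn2d was below HM in 9. Over the 12 inhibitors other PM had a median log2 ratio of -0.13 to HM, with 6 above 0 and 6 below. The fifth gene higher in PM was Rbl1, the pocket protein p107 (77.3 against 14.6 CPM). Cdkn1c, the inhibitor p57, was the lower one, at 11.8 against 25.6 CPM. Cdkn1b, the inhibitor p27, had 55.5 against 66.3 CPM, lower in 9 of 10 libraries. Of 8 targets of p53 with enough UMIs Cdkn1a alone was over 2-fold higher in every library, and Mdm2, another target, had 74.6 against 57.0 CPM.

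Of the 20 genes of the largest ratio outside the lists, Pbk, a mitotic kinase, led with 162 against 0.03 CPM. Mxd3, a partner of Max, had a log2 ratio of 10.29, Esco2, which joins sister chromatids, 9.75, and Aspm, a spindle pole protein, 9.33. The 10 genes with the lowest ratios had only 1 to 9 UMIs in PM, too few to describe.

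**Figure D3:**
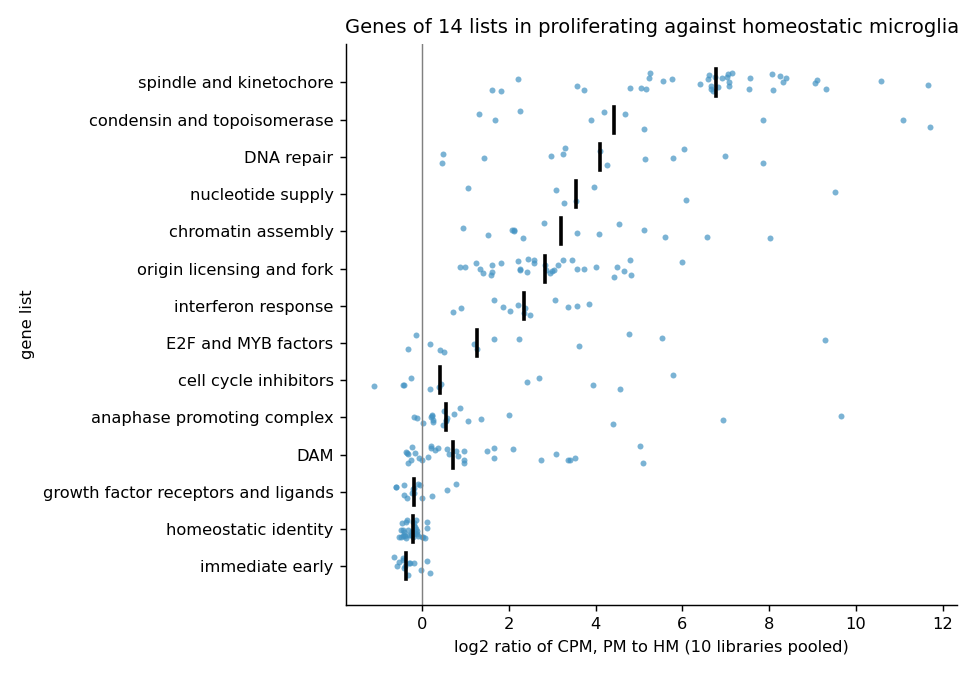
Points are genes of 14 lists with at least 200 UMIs in PM and HM together, on an axis of log2 CPM in PM over HM, and black bars are the medians of the lists. Genes without a UMI in HM are not drawn. Medians run from 6.78 for spindle and kinetochore genes to -0.37 for immediate early genes, with identity genes at -0.22.

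Microglial identity was kept in PM at slightly lower levels. Of 35 identity genes none was over 2-fold higher or lower by the measure used, but 31 had a ratio below 1 and 21 were lower in 10 of 10 libraries (median log2 ratio -0.22). The median over all genes was 0.04. The shares of all genes with a ratio below 1 or lower in 10 of 10 libraries are not given here. P2ry12 had 2595 CPM in PM, from 1489 over a median of 2681 to 3206 by library, against 2865 to 3877 in HM, and was lower in 10 of 10 libraries. Gpr34, a receptor for lysophosphatidylserine, had 1851 against 2506 CPM, and Cx3cr1, the fractalkine receptor, 4208 against 5182 CPM. Tmem119 (1514 against 1676 CPM) was lower in 9 of 10 libraries. Sparc, Fcrls and Olfml3 were within 0.11 of equality on the log2 scale.

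The lower identity levels lay mainly in G2/M-high PM. There, P2ry12 ranged from 1130 over a median of 1460 to 2246 CPM by library, against 2246, 3076 and 3947 CPM in other PM. It was lower in 10 of 10 libraries, with a log2 ratio of -1.15 between both classes. Other PM differed from HM by only -0.06. Gpr34 (log2 ratio -1.02), Cx3cr1 (-0.62) and Tmem119 (-0.41) were also lower in G2/M-high PM in 10 of 10 libraries. Over the 35 identity genes the median log2 ratio between G2/M-high and other PM was -0.42, with 33 below 0, where the median of all 4585 genes with enough UMIs was -0.06. Between other PM and HM it was -0.08, against 0.05 over all genes. CPM are relative to all UMIs of a class. A doublet score over 0.5 was more frequent in G2/M-high PM, as given above, and its part in these levels was not tested. Among cells with a score of at most 0.5, P2ry12 was 1499, 3406 and 3483 CPM in G2/M-high PM, other PM and HM.

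Other PM, which by the cut hold few G2/M UMIs, had high levels of licensing and fork genes. Part of these genes also chose the S-only cells among them. Mcm5 was 90.4 CPM in other PM and higher than in HM in 10 of 10 libraries. All 33 licensing and fork genes with enough UMIs were above HM, 29 of them over 2-fold. Their median log2 ratio was 2.36, beside 0.05 over all genes. The share of all genes for these counts is not given here. Genes of the G2/M list were above HM as well, 42 of 47 with enough UMIs, 32 of them over 2-fold (median 1.87). Stmn1 was 212 CPM in other PM, a log2 ratio of 3.00 to HM. Genes of the histone clusters were not higher as a group. Their summed level was 269 CPM in S-only PM and 401 CPM in PM above neither limit. In HM it was 444 CPM and in G2/M-high PM 2138 CPM. Of 29 such genes with enough UMIs, 10 were above and 19 below HM in other PM (median log2 ratio -0.14).

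**Figure D4:**
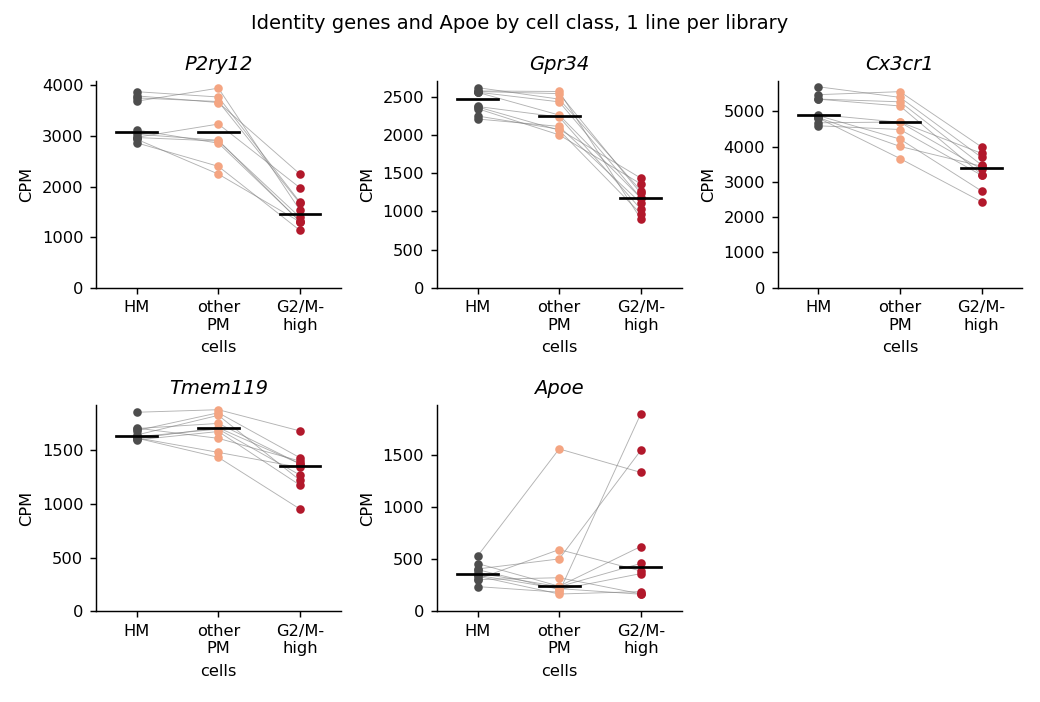
Each panel gives the CPM of 1 gene in HM, other PM and G2/M-high PM, with 1 line for each of the 10 libraries. P2ry12, Gpr34, Cx3cr1 and Tmem119 fall from other PM to G2/M-high PM in 10 of 10 libraries, and Apoe rises in 6 of 10.

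Interferon-response genes were the group outside the cycle that was most often higher in PM. Of 13 such genes 8 were higher by the measure used and all 13 had a ratio above 1, with a median log2 ratio of 2.35. Their summed level was 1239 CPM in PM and 318 CPM in HM, but 1440 CPM in DAM, above that of PM. Ifi27l2a had 464 CPM in PM, from 192 in WT 3m over a median of 373 to 997 in APP/PS1 9m, and 21.9 to 90.7 CPM in HM. The 9-month libraries of WT, APP/PS1 and Nlrp3KO APP/PS1 stood at 798, 997 and 897 CPM, and the fourth, Nlrp3KO 9m, was at 198 CPM. Ifitm3, which hinders viral entry, had 165 against 13.8 CPM, and Isg15, a ubiquitin-like modifier, 39.8 against 8.56 CPM. The genes were higher in both classes, with a median log2 ratio of 1.49 between other PM and HM over 13 genes. Ifi27l2a was 811 CPM in G2/M-high and 218 CPM in other PM, higher in the former in 9 of 10 libraries. Genes of the NF-kB and inflammasome lists of the study and immediate early genes did not follow, with 1 of 9, 0 of 8 and 0 of 14 higher. Their median log2 ratios were -0.17, -0.21 and -0.37.

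DAM genes were mixed in PM. Of 32 DAM genes with enough UMIs, 23 had a ratio above 1, 7 were higher in 10 of 10 libraries and 5 lower in 10 of 10, with a median log2 ratio of 0.70 beside 0.04 over all genes. As for the identity genes, the shares of all genes for these counts are not given here. The summed level of the DAM list was 28670 CPM in PM, 29476 CPM in HM and 67457 CPM in DAM, and PM exceeded HM in 2 of 10 libraries. Of the 32 genes 3 were higher by the measure used, 9.38% of them. Lpl, a lipase, had 73.6 CPM in PM, 11.1 in HM and 307 in DAM. Apoe, the lipid carrier, had 566, 368 and 7693 CPM, and was higher in PM than HM in 4 of 10 libraries, of which 3 were WT, APP/PS1 and Nlrp3KO APP/PS1 at 9 months (1183, 1187 and 1394 CPM). Few cells set these levels, since 10 PM held 50% of the 2915 Apoe UMIs and 1 PM held 405. An Apoe UMI was present in 38.0% of PM and 35.2% of HM. The receptor gene Trem2 and its adaptor gene Tyrobp, which rise in DAM, were lower in PM than in HM, with log2 ratios of -0.34 and -0.25.

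Cst7, the protease inhibitor cystatin F, was high in few PM. Its 700 UMIs lay in 112 PM (14.2%, against 4.71% of HM and 51.2% of DAM), and the 6 cells with the most held 50% of them. All 16 PM with at least 10 Cst7 UMIs came from 3 APP/PS1 libraries, 8 from Nlrp3KO APP/PS1 9m, 5 from Nlrp3KO APP/PS1 3m and 3 from APP/PS1 9m, and 14 of them were G2/M-high. None came from APP/PS1 3m. Accordingly Cst7 was 688, 198 and 187 CPM in PM of these libraries and 3.69 to 47.4 CPM in the 7 others, against 7.82 to 39.1 CPM in HM.

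The effect of the APP/PS1 background within PM was tested over the 4 pairs with edgeR's quasi-likelihood F test, with calls made where the adjusted p was under 0.05 and genes changed by more than 1 on the log2 scale. Of 6952 genes 5 were higher and none lower (0.0719%), with 325 at an unadjusted p under 0.05. They were H2-Aa, H2-Ab1 and Cd74, which encode MHC class II and its invariant chain, Cst7, and the receptor kinase gene Axl. HM gave no call among 11553 genes (0%) in the same test with edgeR, with 512 at an unadjusted p under 0.05. Axl and Cst7 were nonetheless above their non-diseased counterparts in HM in 4 of 4 pairs, with log2 fold changes of 0.73 (adjusted p = 0.903) and 0.79 (adjusted p = 0.819) that were not called. For Axl the effect in PM was not shown to differ from that in HM (difference 0.63, SE 0.52, edgeR adjusted p = 0.916). Leaving out the Nlrp3KO pair of 3 months gave 3 calls in PM, Cd74, H2-Ab1 and Crip1, which was not among the 5. Without the Nlrp3KO pair of 9 months there were 5 calls, with Crip1 and H2-Eb1 in place of Axl and Cst7. Leaving out the Nlrp3WT pairs of 3 and 9 months gave 8 and 9. No cycle list had a call. Of 53 G2/M genes tested 50 had a log2 fold change above 0, with a median of 0.19 beside 0.01 over all genes. Of all 6952 genes 3654 were above 0. For the 8 interferon genes tested the median was 0.77, all above 0 and none called, and in HM all 13 were above 0 too (median 0.44, none called). For the 35 identity genes the median in PM was -0.10. The 5 calls were all in the DAM list, 25 genes of which were tested (median 0.35).

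The MHC class II calls rested on 3 cells. Cd74 was 796 CPM in APP/PS1 3m, 205 in Nlrp3KO APP/PS1 3m and 948 in APP/PS1 9m, but 63.6 in Nlrp3KO APP/PS1 9m and 11.1 to 84.6 in the non-diseased libraries. The first 3 of these libraries held 1 PM each with at least 5 UMIs of Ccr2, a chemokine receptor of monocytes, and no HM held as many. The cells had 30, 42 and 8 Ccr2 UMIs, in APP/PS1 3m, APP/PS1 9m and Nlrp3KO APP/PS1 3m, with 409, 389 and 164 UMIs of Cd74. Their P2ry12 counts were 2, 1 and 0 UMIs, where the median PM held 15. All were G2/M-high, and both annotations called them PM. They held 25490, 17099 and 6960 UMIs in the same order, with doublet scores of 0.0268, 0.920 and 0.290. They held 79.5% of all Cd74 UMIs in PM, 84.3% of H2-Ab1 and 92.3% of H2-Aa. Without them Cd74 was 42.6, 37.1 and 39.0 CPM in the 3 libraries, which overlaps the non-diseased range. The fit without them, chosen after seeing the data, called Cst7 alone, and Axl, H2-Aa and H2-Ab1 no longer passed its filter on low counts. The log2 fold change of Cd74 went from 3.48 (SE 0.22, edgeR adjusted p = 1.28e-07) to 0.16. Axl rested on them less, since they held 15.4% of its UMIs. Without them it was 24.8, 29.3 and 59.6 CPM in Nlrp3KO APP/PS1 3m, APP/PS1 9m and Nlrp3KO APP/PS1 9m, above 1.63, 17.1 and 11.1 CPM in their non-diseased counterparts, but 5.81 CPM in APP/PS1 3m against 7.90 CPM in WT 3m. Its call with all cells (log2 fold change 2.11, edgeR adjusted p = 0.0485) was lost without the Nlrp3KO pair of 3 months (adjusted p = 0.525) or of 9 months (adjusted p = 0.539) and with DESeq2 (adjusted p = 0.499). The summed level of 4 monocyte markers in PM, 3.95 to 117 CPM (HM 5.47 to 11.7), was at most 46.4 CPM without them. That of 5 markers of border macrophages, 2 of them at 0 in PM, went from 2.79 to 53.8 CPM and was at most 43.7 CPM without them (HM 3.46 to 7.65). How far such cells contribute to the other PM values was not tested.

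Cst7 was the call kept without these cells. Its log2 fold change in PM was 2.79 (SE 0.38, edgeR adjusted p = 0.00260), higher in 3 of 4 pairs. APP/PS1 3m, at 3.69 CPM, was below WT 3m, at 19.8 CPM. It was not called without the Nlrp3KO pair of 3 months (adjusted p = 0.355) or of 9 months (adjusted p = 0.101), nor with DESeq2 (log2 fold change 2.10, adjusted p = 1.0). The effect of APP/PS1 on Cst7 differed between PM and HM by 1.85 (SE 0.34, edgeR adjusted p = 0.0168), 1 of 3 such calls among 6823 genes (0.044%) with H2-Ab1 and Cd74. The difference was not called when any of Nlrp3KO 3m, Nlrp3KO APP/PS1 3m, Nlrp3KO 6m, Nlrp3KO 9m, APP/PS1 9m or Nlrp3KO APP/PS1 9m was left out, which gave 2 or 3 calls. It was not called with DESeq2 either (1.31, adjusted p = 1.0), nor without every PM holding a Ccr2 UMI (1.84, adjusted p = 0.0799), whereas without the 3 PM of at least 5 such UMIs it was (1.86, adjusted p = 0.0450).

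The effect of Nlrp3 deletion within PM was tested over the 5 pairs in the same way. Of 6823 genes 4 passed (0.0586%), with 251 at an unadjusted p under 0.05. Nlrp3 itself was at 0 in every Nlrp3KO library and at 22.0 to 51.7 CPM in the Nlrp3WT libraries, as the genotype labels have it. Gm8797, a predicted gene, was higher in 5 of 5 pairs, by 2.79 (SE 0.36, edgeR adjusted p = 0.00108). It was 2.90 to 41.6 CPM in the Nlrp3WT libraries and 58.8 to 150 CPM in the Nlrp3KO libraries. HM, in which 4 of 11591 genes passed (0.0345%), had a similar fold change for it (2.94, adjusted p = 0.330). Hist3h2a, a histone H2A gene (chr11:58954685-58956830, GRCm38), was lower in 5 of 5 pairs, with a log2 fold change of -1.55 (SE 0.26, adjusted p = 0.0202). The call was lost with DESeq2 (log2 fold change -1.64, adjusted p = 0.276) and, in edgeR, without the APP/PS1 pair of 3 months (adjusted p = 0.289) or 9 months (adjusted p = 0.169) or the non-diseased pair of 6 months (adjusted p = 0.0987). Hist3h2a was lower in HM too (-1.38, adjusted p = 0.000545), and lies 0.585 Mb from Nlrp3 (chr11:59541568-59566956). Its neighbour Hist3h2ba, a histone H2B gene 0.592 Mb from Nlrp3, was lower in HM in 5 of 5 pairs (-2.83, edgeR adjusted p = 0.0212) and had too few UMIs to be tested in PM. All Nlrp3KO libraries carry the same deletion with its flanking sequence, so for genes near Nlrp3 the loss of Nlrp3 and differences in the flanking sequence cannot be told apart. H2-Ab1 was the fourth (-2.32, adjusted p = 0.00108), and it was not called with DESeq2. Without the Ccr2 cells it no longer passed the filter on low counts and was not tested. Leaving out the APP/PS1 pair of 3 months left Gm8797 alone, and leaving out the pair of 9 months without APP/PS1 gave 9 calls, which added Cd74, H2-Aa, Lpl, Cst7 and Pttg1. The counts were 2 without the APP/PS1 pair of 9 months and 3 and 5 without the non-diseased pairs of 3 and 6 months. Hist3h2a is in the list of histone genes, and no other list of cycle genes had a call for Nlrp3 deletion. The 8 interferon genes tested all had a log2 fold change below 0 (median -0.45, none called), as had 3322 of all 6823 genes.

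Pttg1 set PM apart from HM in the effect of Nlrp3 deletion. It encodes securin, which holds sister chromatids together until anaphase, and lies on the same chromosome, 16.1 Mb from Nlrp3 (chr11:43420250-43426251, minus strand). The part of flanking sequence in its levels was not tested. In HM it was 34.98 to 54.6 CPM in the 5 Nlrp3WT libraries and 1.46 to 9.87 CPM in the 5 Nlrp3KO libraries, a log2 fold change of -2.83 (adjusted p = 0.0212), so that the genotypes did not overlap. In PM it was 36.9 to 61.2 CPM in Nlrp3WT libraries and 50.2 to 157 CPM in Nlrp3KO libraries, which overlap, with a log2 fold change of 0.87 (adjusted p = 1.0). The effects differed by 3.62 (SE 0.42, edgeR adjusted p = 1.34e-05), and Pttg1, H2-Ab1 and Cd74 were the 3 such calls among 6823 genes (0.044%). The call of Pttg1 was kept in each of the 10 fits that left out a library and with DESeq2. H2-Ab1 and Cd74 were not called without Nlrp3KO APP/PS1 3m, which left 1 call. Without the Ccr2 cells 1 call was left too, since H2-Ab1 no longer passed the filter on low counts and Cd74 was not called (-0.30, adjusted p = 1.0). H2-Ab1 was also lost without APP/PS1 3m, where Cst7 was called and the count was 3, and Cd74 without APP/PS1 9m, which left 2 calls. The counts were 3 to 5 without any other library, and 5 without each of Nlrp3KO 6m, WT 9m and Nlrp3KO 9m. Over the phases of PM the genotypes separated in both directions. In G2/M-high PM, Pttg1 was 28.9 to 83.7 CPM in Nlrp3WT libraries, from 3 to 20 UMIs each, and 124 to 274 CPM in Nlrp3KO libraries, from 16 to 79 UMIs. In other PM it was 29.5 to 48.1 CPM in Nlrp3WT libraries and 0 to 14.1 CPM in Nlrp3KO libraries, the latter from at most 6 UMIs each. These values by phase were looked at after the difference had been found, and were not tested.

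**Figure D5:**
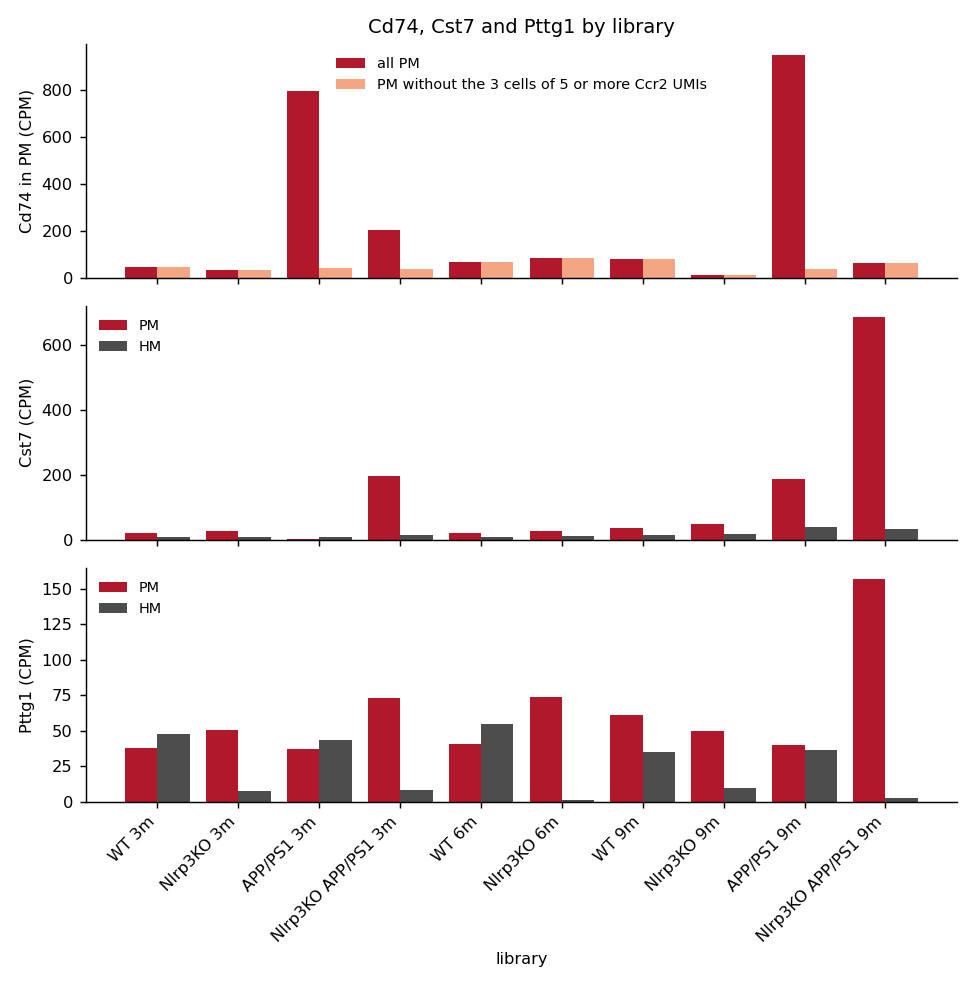
Bars give CPM by library for Cd74 in PM with and without the 3 PM of at least 5 Ccr2 UMIs, and for Cst7 and Pttg1 in PM and HM. Pttg1 in HM separates the 5 Nlrp3KO libraries (at most 9.87 CPM) from the 5 Nlrp3WT libraries (at least 34.98 CPM), while in PM the Nlrp3KO libraries lie at 50.2 CPM or above.

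Because each pool held mice of both sexes, PM could be compared with HM in sex-linked RNA. Of the PM with UMIs of either Xist or Y-linked genes but not both, 53% (49.1% to 56.9%) had Xist only, against 40.9% of HM and 40.3% of DAM. The share ranged from 31.8% to 69.8% by library in PM and from 32.7% to 50.4% in HM. It was higher in PM than in HM in each library of 3 and 6 months and in WT 9m (59.1% against 45.7%) and Nlrp3KO APP/PS1 9m (37.7% against 32.7%), and lower in Nlrp3KO 9m (31.8% against 38.8%) and APP/PS1 9m (36.7% against 50.4%). Whether cell number per mouse or RNA per cell sets this value cannot be told apart here.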

How the data were processed

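According to the study's methods, 3' libraries of sorted CD45+ cells (10x Genomics, v3) were aligned to mm10 by Cell Ranger, outlier cells were removed with Scater, and the authors annotated cells with Seurat after harmony. The authors deposited whole UMI counts per gene and cell without normalization, 2 annotations, the percent of mitochondrial UMIs, the fraction of ribosomal UMIs and a doublet score from 0 to 1. Of 52369 cells, 6897 under 2 names that match no sample description were not used. PM were taken as annotated, and the members, lists and tests were chosen with earlier results of these data known.

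UMIs were summed over the cells of a state in each library, and CPM are UMIs per 1000000 of these sums. Tests used edgeR 4.0.16 (filterByExpr, TMM, quasi-likelihood F test, Benjamini-Hochberg adjustment) with pairs of libraries of the same age and background (Nlrp3, 5 pairs) or the same age and Nlrp3 genotype (APP/PS1, 4 pairs) as blocks. Differences of effects between PM and HM used the library as the block. Libraries of a pair come from separate mice, and since each group is 1 library, no p-value measures the spread between libraries of a group. The sign-flip p-values rest on the spread between pairs. Those of edgeR rest on variances estimated in part from all genes, so an SE need not follow the spread of the gene's own pairs. The residual degrees of freedom were 4 (Nlrp3), 3 (APP/PS1) and 7 (PM against HM). Named genes are members of the lists, the 20 highest and 10 lowest genes outside them, the genes called in a test, and Nlrp3. Thinning, intervals, sign-flip tests and figures used Python 3.11.15 (numpy 2.4.6, scipy 1.17.1, matplotlib 3.10.9). The fits were run on counts simulated without differences between pairs. In PM a log2 change of 1, the limit for a call, was called in 49.4% (Nlrp3) and 45.6% (APP/PS1) of such genes. Changes of 2 or 3 were all called, which need not hold for the data themselves. Alternatives were DESeq2 1.42.0, its size factors, no filter, other minimum counts and folds, thinning to 1500 UMIs, other definitions and denominators of PM, log odds, no cells of a doublet score over 0.5, additive covariates and leaving out each pair or library. The G2/M-high class and the fits without Ccr2 cells were added after seeing the data.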

Additional observations from a re-analysis of the deposited data

Results flagged for a closer look

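Over 52 sets of values by arm, 11 held 1 library that stood far from the others by Dixon's criterion. The sets share libraries, mix ages and in part genotypes, and cover genes already named above. No chance rate can therefore be set beside this count. The Nlrp3KO APP/PS1 9m library stood apart among the 5 Nlrp3KO libraries in the share of PM (3.76%), and in PM levels of Pttg1 (157 CPM), Cst7 (688 CPM), Apoe (1394 CPM) and Ifi27l2a (897 CPM). WT 9m stood apart in Pttg1 (61.2 CPM) among the Nlrp3WT libraries, and in Apoe (1183 CPM) and Ifi27l2a (798 CPM) among the non-diseased libraries. APP/PS1 9m did so in Cst7 (187 CPM) among the Nlrp3WT libraries. APP/PS1 3m had the highest Mcm5 (127 CPM), both among the Nlrp3WT and among the APP/PS1 libraries.

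The effects of a genotype differed between PM and HM by edgeR's test for 5 combinations besides that of Pttg1, whose Nlrp3 effect was 3.62 higher in PM on the log2 scale. The Nlrp3 effect was -2.12 for H2-Ab1 and -2.0 for Cd74, and the APP/PS1 effect was 3.65 for H2-Ab1, 2.96 for Cd74 and 1.85 for Cst7. Without the 3 PM of high Ccr2 those of Cd74 were not called, and H2-Ab1 had too few UMIs to be tested.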

How the results depend on the processing

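Of 69 alternative settings other than leaving out a library or pair, 49 gave a difference of shares in the same direction or a count of genes within 1.5 times. The PM share differed by -0.0136 percentage points between Nlrp3 genotypes with PM from the annotation of all CD45+ cells, and by -0.627 for APP/PS1 and -3.80 for age with PM defined by at least 3 cycle genes. For the cause, only the 25.6% of HM that this definition also takes was measured. DESeq2 called 2 genes for Nlrp3 deletion and 2 for APP/PS1 in PM, and 1 for each difference of effects from HM. Without a filter on low counts the calls were 18, 20, 9 and 10 in the same order, and the cause was not tested. Without PM holding a Ccr2 UMI they were 1 for APP/PS1, 1 for the Nlrp3 difference and 0 for the APP/PS1 difference (edgeR, 293 genes at an unadjusted p under 0.05), and without the 3 PM of at least 5 Ccr2 UMIs 1, 1 and 1. The APP/PS1 difference of Cd74 then turned to -0.30 and -0.28. A log2 limit of 2 left 281 genes higher and 4 lower in PM than HM, and a minimum of 50 UMIs gave 63 lower.

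Leaving out 1 pair or library in turn gave ranges of 0.0937 to 0.461 (Nlrp3), 0.573 to 1.06 (APP/PS1) and 0.723 to 1.17 (age) for the PM share, and of -7.04 to 2.47, 1.04 to 17.2 and 15.2 to 25.3 for the G2/M-high share. The positive value, 2.47, arose without the non-diseased pair of 9 months. For PM with more S than G2/M UMIs the ranges were -8.54 to -1.45 (Nlrp3) and -17.1 to -4.98 (APP/PS1). Calls ranged from 1 to 9 for Nlrp3 deletion, 3 to 9 for APP/PS1, 1 to 5 and 2 to 4 for the differences of effects, 536 to 599 for genes higher and 27 to 42 for genes lower in PM.

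In fits with age and the other genotype as additive terms in place of pairs as blocks, 6 genes were called for Nlrp3 deletion. Cst7 and Cd74 were among them, and 5 genes were called for APP/PS1. No paired analysis by replicate number was possible because each group is 1 library. The PM of a library number 56 to 166, so that single cells can set the level of a rare transcript, and 4 pairs cannot give a sign-flip p under 0.125.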

Other observations

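Among other microglial states thinned to 2500 UMIs, 0.760% of interferon-responsive microglia and 0.911% of microglia with immediate early genes (the IEG state) were G2/M-high by the limits set on HM, against 0.111% of DAM. S-only cells were 1.21%, 1.68% and 0.445% of them. The annotation of all CD45+ cells also named 2 proliferating border macrophages and 6 proliferating dendritic cells, which are not among the PM described here.

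Nes, which encodes the filament protein nestin and was listed as a marker of neural progenitors, had 15.1 CPM in PM and 1.08 CPM in HM, higher in 10 of 10 libraries. The other 3 markers of that list were at 0 in PM. Cxcl13, a chemokine of B cells, had 77 UMIs in PM, in 6 cells.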
